A study of Mus musculus with 3 samples.

Results

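The potassium channel genes Kcnq1, Kcne1, Kcne2, Kcne3 and Kcne4 were followed across tumours of liver, stomach and lung in AID transgenic mice, whose transgene encodes activation-induced cytidine deaminase, an enzyme that deaminates cytosine in DNA. The 5 genes were taken by name from an Agilent mouse array design of 27680 genes and 41174 probes. They were chosen by their measured ratios on the stomach array and in the lung lists. The design names 8 probes for them, of which 7 matched them by accession; the eighth belongs to Kcnq1ot1, a transcript antisense to Kcnq1, and was read as that. The values that follow are therefore a description, and none of them is tested.

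Each organ had 1 two-colour array. The liver array set a liver tumour of an AID transgenic mouse beside nontumour liver of the same mouse, and the stomach array set a gastric tumour beside nontumour stomach of its own AID transgenic mouse. The lung array set a lung tumour of an AID transgenic mouse beside normal lung from a wild-type (Wt) mouse, so in lung the genotype and the tumour cannot be told apart. The promoter of the transgene, the age of the mice and the number of mice behind each RNA are not stated in the labels, and there was no replicate and no array with exchanged dyes. Scanner values were analysed for liver and stomach. Lung values come from the authors' deposited table of selected spots alone. The smallest difference in its lung lists was 2-fold, so a lung spot outside them has no value here. Its lung ratios did not pass through the normalisation used here for liver and stomach, so the sizes of lung and stomach ratios are on unlike scales.

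Which dye held the tumour is not settled. The dye labels give the tumour as Cy3 and the comparison tissue as Cy5, whereas the authors' deposited table puts Cy5-high spots into the lists headed as raised in the tumour. With the study's design text, which points to that table, Cy5 is the likely tumour channel. Under the dye labels the tumour would be in Cy3, and every ratio below would read the other way for tumour against comparison tissue. The ratios below are log2 of Cy5 over Cy3: positive values are brighter in Cy5 and negative values brighter in Cy3. A gene is counted as apart from a difference of 2-fold, a log2 ratio of 1 in size. The error beside a value is the SD between probes of the gene or, for a gene with 1 probe, the error that the scanner software gives, turned to log2; both cover measurement within 1 array and not differences between animals. A mean over probes takes a signal that is not well above background, or is saturated, as it was read, so such a mean is approximate.

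Kcnq1 forms the pore of a voltage-gated potassium channel, and the KCNE proteins are small membrane subunits that join this and related pores and set how they open. With Kcne2, Kcnq1 is open at rest in the acid-secreting parietal cell of the stomach, where it returns potassium to the lumen for the proton pump. With Kcne3 it is open at rest in the basolateral membrane of intestinal crypts and other epithelia, where potassium exit sustains chloride secretion. With Kcne1 it carries the slow delayed rectifier current of the heart, and Kcne4 inhibits it.

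Because Kcne2 and Kcne3 stood farthest apart between the channels of the stomach array, in opposite directions, the RefSeq sequence just before the first annotated base of each is printed as the DNA beside which the measured transcripts start. Coordinates are of GRCm38.p6, and both genes are on the plus strand. Of the 5 genes, 3 matched the RefSeq promoter table by symbol (Kcne2, Kcne3 and Kcne4). The first lies at chr16:92292139-92292388 (250 bases) and the other at chr7:100176420-100176506 (87 bases). Capitals mark the matches to the 5 motifs searched on both strands.
Kcne2: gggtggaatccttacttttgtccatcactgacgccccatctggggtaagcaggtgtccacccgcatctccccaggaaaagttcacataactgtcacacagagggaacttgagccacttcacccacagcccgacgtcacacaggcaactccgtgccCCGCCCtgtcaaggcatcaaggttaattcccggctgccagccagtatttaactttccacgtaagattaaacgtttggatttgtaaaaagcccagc
Kcne3: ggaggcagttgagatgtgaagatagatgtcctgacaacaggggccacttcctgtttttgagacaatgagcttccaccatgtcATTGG
The capitals in the Kcne2 sequence are a match to GGGCGG on the minus strand, and 32.7% of 32851 promoters held this motif in their first 250 bases. The capitals in the Kcne3 sequence are a match to CCAAT on the minus strand, which 11.8% of promoters held in their first 87 bases. These stretches were counted from the start of each promoter entry. They need not lie as close to a gene's first annotated base as the printed windows do. The other motifs searched were the TATA box letters TATAAA, the nuclear receptor half-site AAGGTCA and the homeobox-type motif TTTATG, and neither sequence held any of them. GGGCGG was absent from the Kcne3 window and CCAAT from the Kcne2 window. Over the first 250 bases the shares of promoters with a match were 12.4% for TATAAA, 4.08% for AAGGTCA, 10.8% for TTTATG and 33.8% for CCAAT. Over the first 87 bases they were 4.64% for TATAAA, 1.51% for AAGGTCA, 4.13% for TTTATG and 9.01% for GGGCGG. The 2 printed sequences thus shared no match among these motifs. The matches describe letters in these windows, and the arrays did not measure the promoters.

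The tissues carried the transcripts that define them. The probe of albumin (Alb) was saturated in both channels of the liver array and lay at raw signals of 170 in Cy3 and 191 in Cy5 on the stomach array. Another hepatocyte marker, Apoa1, had raw signals of 19300 and 24800 on the liver array but also 819 in Cy3 and 157 in Cy5 on the stomach array. The stomach array's signals for Atp4b, the beta subunit of the gastric proton pump, were 32900 and 3090, against 223 and 226 on the liver array. Between 82.3% and 90.0% of gene spots were well above background in a channel. The 314 negative control spots had median raw signals of 119 to 127 in Cy3 and 67.65 to 68.4 in Cy5, which sets the floor for the dim members below. The pooled SD between probes of a gene was 0.182 (log2) in liver, from 8142 genes, and 0.258 in stomach, from 8046.

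On the stomach array 3 of the 5 genes were at least 2-fold apart: Kcne2 and Kcnq1 were brighter in Cy3 and Kcne3 was brighter in Cy5. None of the 5 was so on the liver array. In the lung lists 4 of the 5 appeared: Kcne3 and Kcnq1 as brighter in Cy5, and Kcne2 and Kcne4 as brighter in Cy3. As background, 2.29% of 25327 genes measured on the stomach array were 2-fold apart (0.877% brighter in Cy5 and 1.42% brighter in Cy3), against 0.223% of 25609 on the liver array (0.152% and 0.0703%). Of the design's genes, 6.84% had a spot in the lung list of Cy5-high spots and 12.4% in that of Cy3-high spots. By probe, 5 of the 7 were listed, against 15.3% of the design's gene spots (5.51% in the Cy5-high list and 9.78% in the Cy3-high list). Since the genes were chosen with these contrasts in view, nothing is read from their count against that background. In bulk tissue, fewer cells that carry a transcript and less of it per cell cannot be told apart, and this holds for every difference given here.

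**Figure D1:**
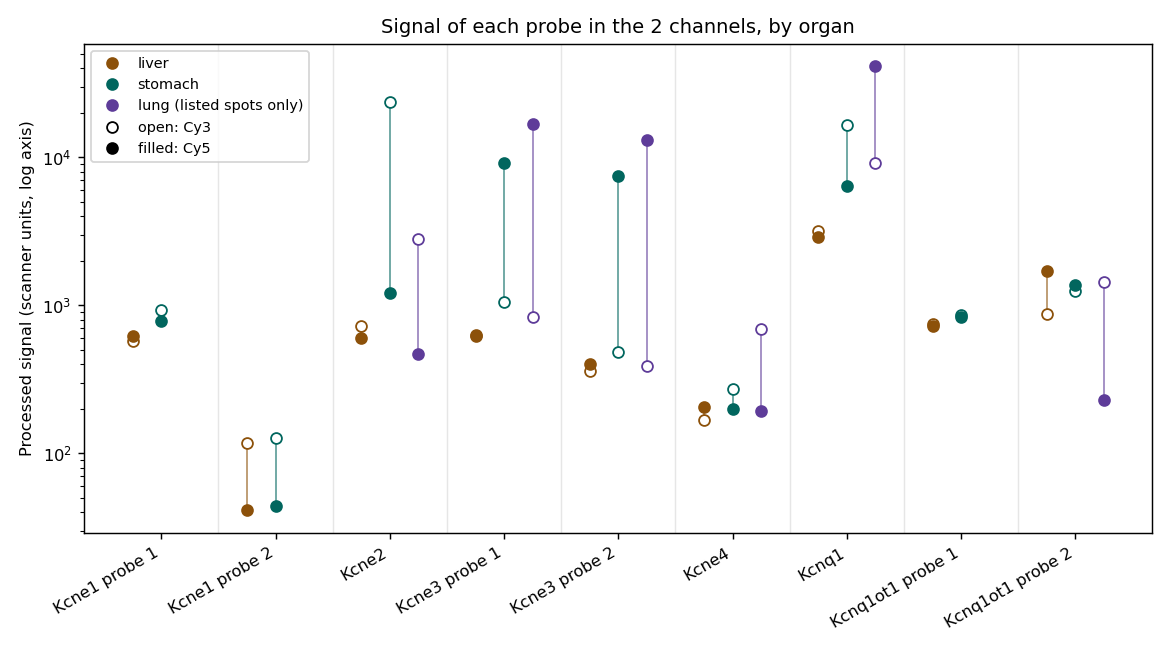
Processed signal of each probe in scanner units (log axis) in Cy3 (open) and Cy5 (filled) for liver, stomach and, where the authors' deposited table lists the spot, lung. The Kcne2 probe reached 23500 in Cy3 and 1200 in Cy5 on the stomach array, the Kcne3 probes were brighter in Cy5 in stomach and lung, and Kcnq1 was brighter in Cy3 in stomach but in Cy5 in lung.

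Kcnq1, the pore subunit, was measured by 1 probe, A_51_P194883, which the array files place at chr7:139854115-139854174 on the plus strand. No source used here names the genome build of these probe positions, so they are not set beside the RefSeq positions above and the exon or UTR under a probe is not stated. Its raw signals on the liver array were 415 in Cy3 and 488 in Cy5, and on the stomach array 1360 and 1160. After normalisation of the dyes the liver log2 ratio was -0.10 (scanner error 0.20) and the stomach log2 ratio was -1.30 (0.20), a 2.46-fold higher level in Cy3; 218 of 25327 genes had a lower ratio there. Both stomach channels were thus brighter than both liver channels at this probe. The raw stomach signals were nearly equal, and the size of the ratio depended on how the dyes were balanced: it was -0.61 when the array was only centred on its median, which is under 2-fold.

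In the lung pair the authors' deposited table lists Kcnq1 the other way, at signals of 9070 in Cy3 and 41200 in Cy5, a log2 ratio of 2.18 or 4.54-fold. For stomach the same table gives a log2 ratio of -1.38 or 2.61-fold. Kcnq1 was the only one of the 5 genes whose listed lung ratio had the opposite sign to a stomach ratio past 2-fold. The difference between the organs was not tested, since each had 1 array and the lung pair was made with a wild-type mouse.

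Kcne2, the subunit that joins Kcnq1 in parietal cells, was measured by probe A_51_P153132 (chr16:92348256-92348315, plus strand). Its raw signals in liver were 195 in Cy3 and 155 in Cy5, dim in both channels, with a log2 ratio of -0.16 (scanner error 0.56). In stomach they were 1920 and 268, with a log2 ratio of -3.88 (0.37), 14.7-fold brighter in Cy3. The stomach sample in Cy3 thus had a strong signal, while the one in Cy5 was not far above the dim liver signals. Among all genes of the stomach array 10 had a lower ratio. In lung the authors' deposited table lists the same probe at 2800 in Cy3 and 466 in Cy5, a log2 ratio of -2.59 or 6.01-fold. For stomach that table gives a log2 ratio of -4.29 or 19.5-fold, the value to set beside the lung one in size. Kcne2 was brighter in Cy3 in both organs where it was apart.

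Kcne3, the subunit of epithelial basolateral channels, was measured by 2 probes that lie next to each other on chromosome 7, A_51_P336599 (chr7:96230794-96230853, plus strand) and A_52_P243425 (chr7:96230672-96230731, plus strand). In liver the first had raw signals of 179 in Cy3 and 159 in Cy5 and the other 156 and 125, with log2 ratios of 0.07 (scanner error 0.59) and 0.13 (0.95). In stomach the first read 202 in Cy3 and 1550 in Cy5, a log2 ratio of 2.55 (0.30) or 5.87-fold, and the other read 155 and 1270, a log2 ratio of 2.88 (0.37) or 7.38-fold. Both probes were thus dim in Cy3 and bright in Cy5. Averaged over the probes, Kcne3 had a log2 ratio of 0.10 (SD 0.04 between 2 probes) in liver and 2.72 (SD 0.23) in stomach, 6.58-fold brighter in Cy5. Of 25327 genes on the stomach array 2 had a higher ratio, namely Clca1 and a transcript that the array names ENSMUST00000076648.

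In lung the authors' deposited table lists both Kcne3 probes as brighter in Cy5. The first had signals of 826 and 16700, a log2 ratio of 4.35 or 20.4-fold, and the other 391 and 13000, a log2 ratio of 5.05 or 33.1-fold. For stomach the same table gives 3.12 or 8.69-fold for the first and 3.95 or 15.5-fold for the other. Kcne3 was therefore brighter in Cy5 at both probes in both organs where it was apart, and in each organ the A_52_P243425 probe gave the larger ratio.

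Kcne4, the inhibitory subunit, was measured by probe A_51_P508838 (chr1:79036190-79036249, plus strand). Its raw signals were 141 in Cy3 and 95.7 in Cy5 on the liver array and 145 and 97.9 on the stomach array, just above the negative controls. The log2 ratios were 0.07 (scanner error 1.92) and -0.15 (1.67), so a difference of 2-fold could not be told from measurement error at this brightness. In lung the authors' deposited table lists it as brighter in Cy3, at 690 and 192, a log2 ratio of -1.85 or 3.60-fold.

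Kcne1, the subunit of the cardiac slow current, was measured by A_51_P211671 (chr16:92401009-92401068, minus strand) and A_52_P71704 (chr16:92398529-92398588, minus strand). The first probe read 182 in Cy3 and 159 in Cy5 in liver and 198 and 193 in stomach, with log2 ratios of 0.05 (scanner error 0.62) and -0.16 (0.48). The A_52_P71704 probe was not well above background in Cy5 on either array, with raw signals of 138 and 69.2 in liver and 136 and 68.2 in stomach. Its Cy3 signals were also near the negative controls. The log2 ratios were -0.34 (scanner error 4.88) in liver and -0.47 (4.92) in stomach, so no difference could be told from measurement error at this probe. Taking its dim Cy5 signal as read, the means over the probes were -0.14 (SD 0.28) in liver and -0.32 (SD 0.22) in stomach. Neither probe was in the lung lists. The remaining subunit, Kcne5 (Kcne1l on the array), was not above background on the liver array and was above it only in Cy5 on the stomach array, at 0.10 (scanner error 4.75).

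**Figure D2:**
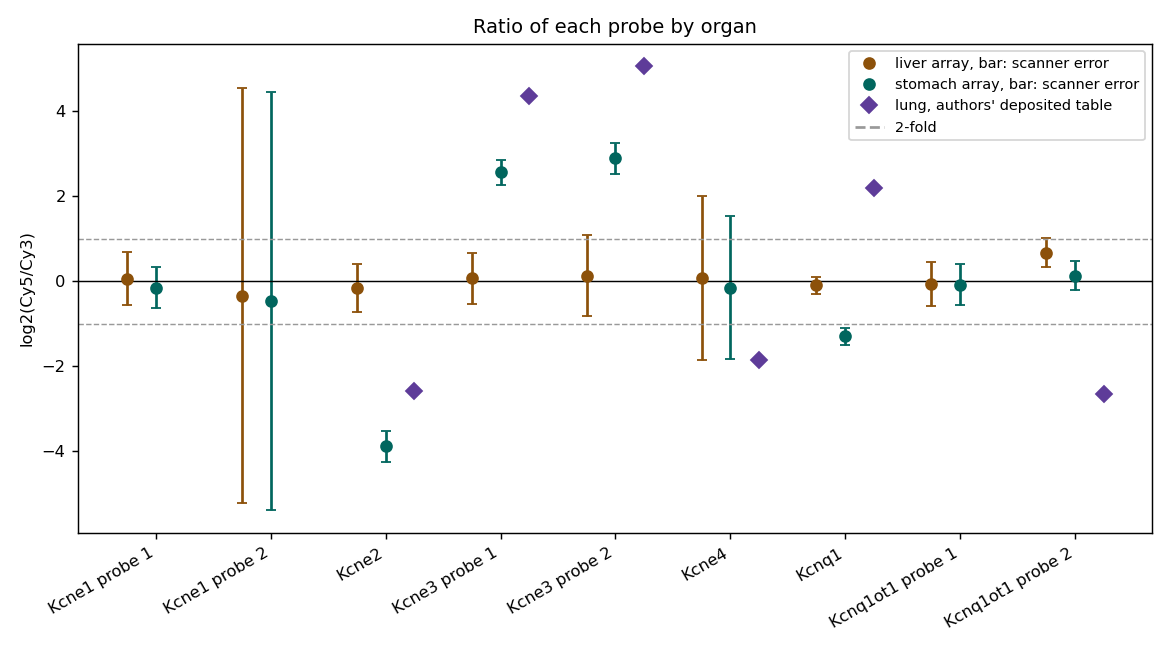
Ratio of Cy5 to Cy3 of each probe on the log2 scale, with the scanner software's error as bars for liver and stomach; lung points are from the authors' deposited table and have no error. Liver points lie within 2-fold (dashed lines), Kcne2 is below the lower line and Kcne3 above the upper line in both stomach and lung, and Kcnq1 lies at -1.30 in stomach and 2.18 in lung. Kcnq1ot1 probe 1 is A_52_P618494 and probe 2 is A_52_P619388.

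The levels of each probe were also ordered over the 4 channels of the liver and stomach arrays, after scaling brightness between arrays, on the log2 scale. Steps between the channels of 1 array are read against the scanner error of the ratio given above, and steps between arrays against the error of the signals. Kcne2 was at 11.36 in stomach Cy3, 7.49 in stomach Cy5, 7.14 in liver Cy3 and 6.98 in liver Cy5, and the liver channels did not differ beyond the error. Kcnq1 was at 10.96 in stomach Cy3, 9.66 in stomach Cy5, 8.77 in liver Cy3 and 8.67 in liver Cy5, again with the liver channels within the error of each other. Stomach Cy3 was thus the brightest channel for the pore and for its parietal cell partner, and both stomach channels were above both liver channels.

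For Kcne3 the order began with stomach Cy5, at 10.08 on the first probe and 9.83 on the other, followed by stomach Cy3 at 7.53 and 6.95. Liver Cy5 and liver Cy3 did not differ beyond the error on the first probe (7.04 and 6.97) or the other (6.68 and 6.56). For Kcne4, stomach Cy3 (6.45), stomach Cy5 (6.30), liver Cy5 (6.29) and liver Cy3 (6.22) did not differ beyond the error from their neighbour in the order. On the brighter Kcne1 probe the order was stomach Cy3 (7.33), stomach Cy5 (7.17), liver Cy5 (7.04) and liver Cy3 (6.98), with the channels of each array within the error of each other. These errors cover 1 spot per channel. When signals were only background-subtracted, the order of channels within the error changed for some probes, the liver channels of Kcnq1 and Kcne3 among them.

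Kcnq1ot1, the long noncoding RNA read from the opposite strand within Kcnq1 and known to silence imprinted genes around it on the paternal chromosome, was described because 1 of its probes carries the name Kcnq1 in the array design. That probe, A_52_P618494 (chr7:139684939-139684998, minus strand), read 203 in Cy3 and 176 in Cy5 in liver and 196 and 203 in stomach, with log2 ratios of -0.07 (scanner error 0.51) and -0.08 (0.48). The probe named Kcnq1ot1, A_52_P619388 (chr7:139704409-139704468, minus strand), read 209 and 318 in liver, a log2 ratio of 0.67 (0.34), and 219 and 286 in stomach, a log2 ratio of 0.12 (0.34). The probes gave opposite signs on both arrays, and the gene's mean was 0.30 (SD 0.52) in liver and 0.02 (SD 0.15) in stomach.

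In lung the authors' deposited table lists only A_52_P619388, at 1440 in Cy3 and 228 in Cy5, a log2 ratio of -2.66 or 6.32-fold. Kcnq1 was listed in the same pair with the opposite sign. For liver that table lists A_52_P619388 as brighter in Cy5, at 873 in Cy3 and 1710 in Cy5, a log2 ratio of 0.97 or 1.95-fold. The listed sign of this probe thus also differed between liver and lung. If A_52_P618494 were counted as Kcnq1, the stomach ratio of Kcnq1 would be -0.69 in place of -1.30 and under 2-fold.

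Genes of the imprinted region around Kcnq1 were taken as a list of 10, all measured. In liver none was 2-fold apart and their median was 0.02, against 0.01 over all genes. In stomach 1 was, Cdkn1c, a maternally expressed inhibitor of the cell cycle, at -1.69 (scanner error 0.27); it is the gene next to Kcnq1. The list's stomach median was 0.07, against 0.0012 over all genes. In the authors' deposited table of the lung pair, Slc22a18 (2.04) and Phlda2 (1.91) were brighter in Cy5, and Kcnq1ot1 (-2.66), Tspan32 (-1.97) and Cdkn1c (-1.91) were brighter in Cy3. Of these, Slc22a18, Kcnq1ot1 and Tspan32 were each listed by 1 of 2 spots. Cdkn1c was thus brighter in Cy3 in both organs, while its neighbour Kcnq1 turned sign.

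The other pore subunits that KCNE proteins are known to join were taken as a list of 13 genes, of which 11 were measured on each array. None was 2-fold apart in liver or stomach, and their medians were 0.11 and 0.01. Kcnq3, a pore subunit of neuronal M channels, was the lowest in stomach at -0.999 (scanner error 0.34), just inside 2-fold, and had 0.12 in liver. Kcnh2, the pore of the rapid cardiac delayed rectifier, had log2 ratios of -0.27 (scanner error 0.98) in liver and 0.04 (0.80) in stomach.

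The transient outward pores Kcnd2 and Kcnd3 had 0.11 and -0.04 in liver and 0.10 and -0.22 in stomach. Kcnq5, a relative of Kcnq1, had 0.09 in liver and 0.01 in stomach. The voltage-gated pores Kcna1 and Kcnc4 had 0.11 (scanner error 1.94) and 0.26 (0.17) in liver and -0.40 (0.91) and 0.03 (0.18) in stomach. Kcna1 was dim, at raw signals of 143 in Cy3 and 101 in Cy5 in liver and 171 and 119 in stomach. The background offset used here pulls such dim ratios towards 0. A 2-fold difference could not be told from measurement error for Kcna1 on either array or for Kcnh2 in liver. The pacemaker channel gene Hcn2 had 0.30 and 0.06. Of the pore genes named here, only Kcnq1 was past 2-fold in stomach under the processing used; with the scanner software's ratio Kcnq3 (-1.39) was too.

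Kcne2 and Kcnq1 serve acid secretion, so 21 other genes of that function in parietal cells were set beside them; all were measured on both arrays. In stomach 6 of them were brighter in Cy3 by at least 2-fold and none in Cy5, with a list median of -0.28, and 4 of 21 had a ratio above 0. Atp4b had raw signals of 32900 in Cy3 and 3090 in Cy5, a log2 ratio of -4.91 (scanner error 0.41). Atp4a, the catalytic subunit of the proton pump, had -4.18 (SD 0.19 between 2 probes). Clic6, a chloride channel protein whose gene lies near Kcne1, had -2.65 (SD 0.30 between 2 probes).

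The anion exchanger Slc4a2, which takes up chloride for acid secretion, had -1.80 (scanner error 0.23), and the chloride transporter Slc26a9 had -1.26 (0.22), or -0.78 with centring on the median alone. Kcnj16, another potassium channel gene, had -1.46, but its 3 probes disagreed (SD 1.06): they were at -0.46, at -2.58 and, on a probe not well above background in Cy5, at a value of -1.33 that is not exact. Further genes of potassium recycling and its regulation did not reach 2-fold: Kcnj15 had -0.28, Kcnj10 -0.14, and the histamine receptor Hrh2 -0.26. In liver none of the 21 was 2-fold apart, and the median was 0.07.

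In the lung pair, the authors' deposited table holds 8 of these 21 genes, 6 brighter in Cy5 and 2 brighter in Cy3. Slc9a2, a sodium and proton exchanger, had 4.38, the carbonic anhydrase gene Car2 had 3.42, and Rab25, Rab11a and Ezr, which act in apical membrane traffic, had 1.80, 1.58 and 1.52. Slc4a2 had 1.003, opposite in sign to stomach, as Kcnq1 did. The genes brighter in Cy3 were the water channel gene Aqp4 (-2.05) and Clic6 (-1.63). Slc9a2 was listed by 1 of 2 spots, and Rab11a and Aqp4 by 2 of 3. The proton pump genes Atp4a and Atp4b were not in the lung lists.

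**Figure D3:**
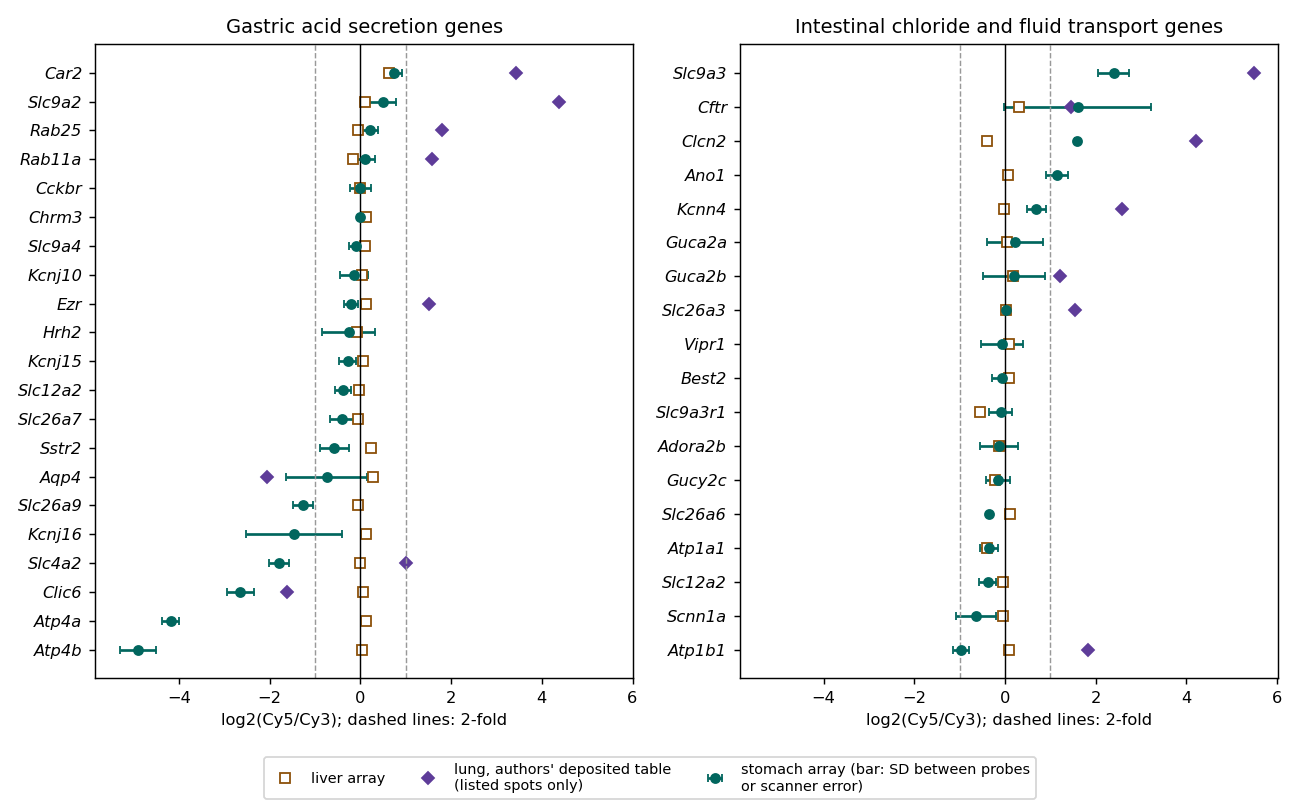
Log2 ratio of Cy5 to Cy3 of 21 genes of gastric acid secretion (left) and of the measured genes of intestinal chloride and fluid transport (right) in liver (squares), stomach (circles, with the SD between probes or the scanner error) and lung (diamonds, listed spots of the authors' deposited table only). In stomach Atp4b, Atp4a and Clic6 lie farthest to the Cy3 side and Slc9a3, Cftr and Clcn2 farthest to the Cy5 side, while all liver points lie within 2-fold (dashed lines).

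Kcne3 serves chloride secretion, so 19 genes of chloride and fluid transport in intestinal epithelium were set beside it, of which 17 were measured in liver and 18 in stomach. In stomach 4 of the 18 were past 2-fold, all of them brighter in Cy5. Slc9a3, the brush border sodium and proton exchanger, had raw signals of 175 in Cy3 and 1070 in Cy5, a log2 ratio of 2.39 (scanner error 0.34). The chloride channel gene Clcn2 had 1.58 (SD 0.03 between 2 probes), and Ano1, a calcium-activated chloride channel gene, had 1.14 (scanner error 0.24).

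Cftr, the apical chloride channel of crypt cells, had 1.60, but its 2 probes gave 2.74 and 0.46 (SD 1.62), and the lower one was not well above background in Cy3. The other 14 genes measured were within 2-fold: Kcnn4, a basolateral potassium channel gene that works in parallel with Kcne3 and Kcnq1, had 0.69, and Atp1b1, a sodium pump subunit, had -0.96. The list's median was -0.07, close to that of all genes, and became 0.23 with centring on the median alone. None of the 17 genes measured in liver was 2-fold apart, with a median of 0.03.

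In lung the authors' deposited table lists 7 of the 19 as brighter in Cy5: Slc9a3 (5.48), Clcn2 (4.22), Kcnn4 (2.58), Atp1b1 (1.82), Slc26a3 (1.54), Cftr (1.45) and Guca2b (1.20). It lists 1 as brighter in Cy3, the kinase gene Prkg2 (-2.33). Slc9a3, Clcn2 and Cftr were thus on the same side as Kcne3 in both stomach and lung. Cftr and Prkg2 were each listed by 1 of 2 spots, and Slc26a3 by 1 of 3.

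Markers of several cell types also stood apart on the stomach array. The 5 parietal cell markers are all in the acid secretion list as well, so they are no separate evidence. Of these, Atp4a and Atp4b were brighter in Cy3 by at least 2-fold. Slc26a7 had -0.41, Hrh2 -0.26, and Aqp4 0.03 and -0.55 on the probes above background in both channels. A further Aqp4 probe, at 224 in Cy3 and 75.8 in Cy5 (not well above background), had -1.71, and the gene's mean was -0.74. The smaller background offset of 16 put 3 of the 5 past 2-fold, all brighter in Cy3. By the scanner ratio 4 were, with Aqp4 at -1.92 and Slc26a7 at -1.24. The number stayed at 2 under median centring and with the brightest probe of a gene. All 4 chief cell markers were brighter in Cy3 (median -4.33), among them Pgc at -4.13, Chia1 by at least 38.3-fold, since 1 of its 2 probes was saturated in Cy3, and Bhlha15 at -1.07 with its 2 probes at -0.09 and -2.05. All 5 squamous markers of the forestomach (median -2.11, with Lor at -4.20 and Krt4 at -3.84) and 3 of 4 smooth muscle markers (median -2.04) were also brighter in Cy3. Of the squamous markers, Trp63 had its probes at -3.17 and -0.07, and Krt14 was at -0.89 with centring on the median alone. Of 6 intestinal markers measured, 3 were brighter in Cy5, Clca1 (at least 11.6-fold, as it was saturated in Cy5), Vil1 (2.03) and Lgals4 (1.79), while Fabp2 had 0.58, Cdx2 0.06 and Muc2 0.07. Of the mucous neck cell markers, Tff2 was brighter in Cy5 by at least 2.24-fold (saturated in Cy5) and Muc6 had -0.27, with 0.40 under median centring. Of the surface mucous markers Gkn1 had 0.20, and Tff1 and Gkn2 were saturated in Cy5, so no ratio is given for them. Of 4 hepatocyte markers 1 was past 2-fold, Apoa1, brighter in Cy3 at -3.24 (scanner error 0.37). Alb had 0.22, Ttr -0.26 and Cyp2e1, not well above background in Cy5, -0.68. The part of these cell types in the ratios of Kcne2, Kcnq1 and Kcne3 was not tested.

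In the lung lists, 3 of 4 smooth muscle markers, 3 of 3 cardiac markers and 3 of 3 endothelial markers were brighter in Cy3, as Kcne2 and Kcne4 were. Among these were Myl7 (-4.25), Kdr (-3.26) and Cnn1 (-2.97), while Kdr, Pecam1 and Tnnt2 were each listed by 1 of 2 spots. Of 3 T cell markers 2 were also brighter in Cy3, Cd3g (-1.78) and Cd8a (-1.15, 2 of 3 spots). The hepatocyte marker Alb (1.55) and the squamous marker Lor (1.92) were brighter in Cy5, and the other markers of these 2 lists were not listed. Of the lung epithelium markers, Ager (-3.95) and Sftpb (-2.71) were brighter in Cy3, and Sftpc and Scgb1a1 were not listed. Of 7 intestinal markers 3 were listed, all brighter in Cy5, as Kcne3 and Kcnq1 were: Vil1 had 5.07, Lgals4 4.42 (1 of 2 spots) and Clca1 1.80. Genes of the gastric marker lists were listed on both sides, and whether they mark such cells in lung was not tested. Tff2 (3.95) and Gkn2 (3.31) were brighter in Cy5, and Aqp4 (-2.05, 2 of 3 spots), Chia1 (-1.26) and Bhlha15 (-1.03, 1 of 2 spots) brighter in Cy3. Muc6, Gkn1, Tff1, Cblif and Pgc were not listed. The part of these cell types in the lung ratios was not tested. No gene of these marker lists was 2-fold apart in liver.

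Genes with a pattern like that of each member past 2-fold were taken as the 5 with the smallest Euclidean distance over the log2 ratios of the liver and stomach arrays, among 24771 genes measured on both. For Kcne2 these were Chga (distance 0.15), a granule protein of endocrine cells, Krt4 (0.17), a keratin of squamous epithelium, Cox7a1 (0.22), Furin (0.26) and Cfd (0.27), with stomach log2 ratios of -3.73, -3.84, -4.08, -3.72 and -3.82. In lung Cox7a1 (-2.15) and Cfd (-5.55) were listed on the same side as Kcne2, and Furin (1.71, 1 of 2 spots) on the other. For Kcne3 they were ENSMUST00000076648 (distance 0.061), Dmbt1 (0.34), a secreted mucosal protein, the lysozyme gene Lyz1 (0.49), Msln (0.52) and Reg1 (0.55), with stomach log2 ratios of 2.76, 2.38, 2.52, 2.22 and 2.17.

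The lung lists hold Reg1 (7.28), Msln (3.42) and ENSMUST00000076648 (1.95) on the same side as Kcne3 and Lyz1 (-4.25) on the other. For Kcnq1 the nearest genes were Gga2 (distance 0.022), Lmo1 (0.041), the acid secretion gene Slc26a9 (0.051), Ank3 (0.052) and the fructose transporter gene Slc2a5 (0.057), with stomach log2 ratios between -1.25 and -1.35. Gga2 (-1.49) and Ank3 (-1.18), each by 1 of 2 spots, were listed in lung with the opposite sign to Kcnq1. With 2 values per gene, such likeness mostly reflects the stomach ratio, because the liver ratios of all 3 members were small.

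Neighbouring genes were the 3 protein-coding genes on each side of a member in the RefSeq table. Around Kcne1 and Kcne2 on chromosome 16, Clic6 was the only neighbour past 2-fold in stomach (-2.65); Rcan1 had -0.32, Smim11 -0.45, Runx1 0.10, Mrps6 0.47 and Slc5a3 0.18. In lung Mrps6 (1.81) and Slc5a3 (2.44, 1 of 2 spots) were listed as brighter in Cy5, opposite to Kcne2. Beside Kcne3 on chromosome 7, Lipt2 was brighter in Cy5 in stomach (1.52) and lung (2.40), and the polymerase gene Pold3 had 0.70 in stomach and 1.35 in lung on 1 of 3 spots. Pgm2l1 (0.32) and Ppme1 (-0.10) were within 2-fold in stomach and not listed in lung.

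Beside Kcne4 on chromosome 1, Acsl3, an enzyme of fatty acid activation, was brighter in Cy5 in stomach (1.14) and lung (1.57), and Mogat1, an enzyme of triglyceride synthesis, was brighter in Cy3 (-1.47 and, on 1 of 3 spots, -1.66). Ap1s3 (1.23, 1 of 2 spots) and Wdfy1 (1.14, 1 of 3 spots) were also listed in lung as brighter in Cy5, with 0.22 and 0.11 in stomach. Kcne4 itself had -0.15 in stomach and was listed at -1.85 in lung. No neighbour measured on the liver array was 2-fold apart, and the largest there was Smim11 at 0.42.

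**Figure D4:**
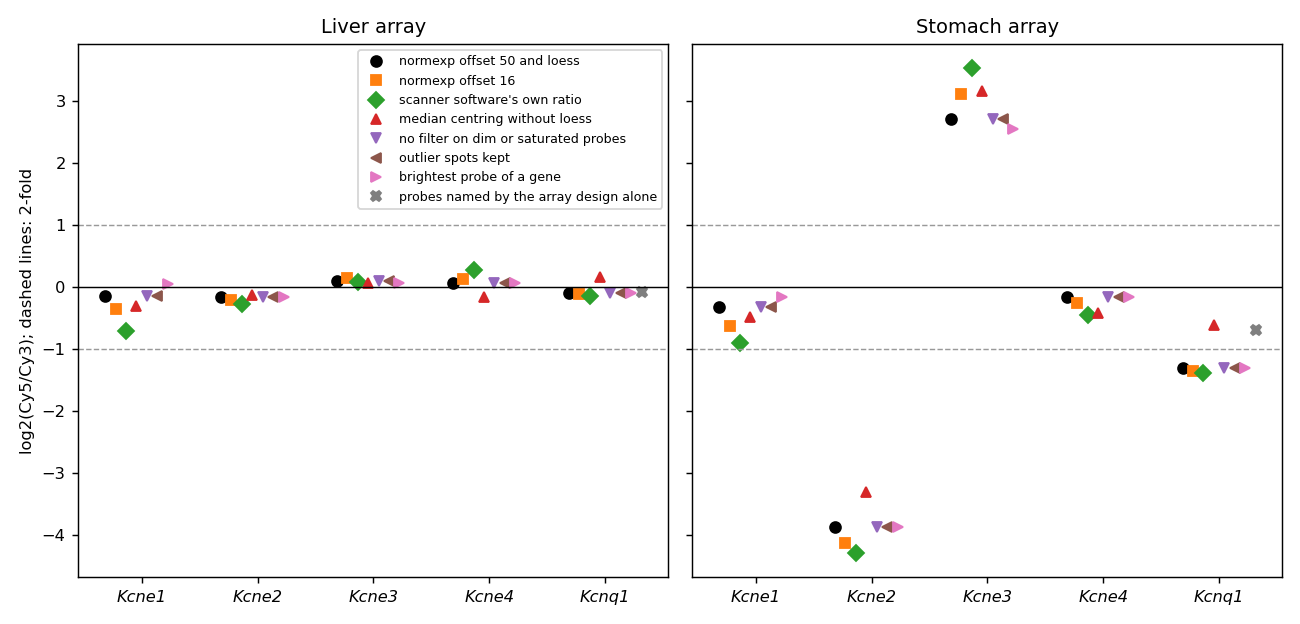
Log2 ratio of Cy5 to Cy3 of each gene on the liver and stomach arrays under each processing setting; markers stand for settings and dashed lines for 2-fold. Kcne2 stays between -4.29 and -3.30 and Kcne3 between 2.55 and 3.54 on the stomach array, whereas Kcnq1 lies between -1.38 and -0.61 and crosses the 2-fold line under 2 settings.

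The settings were compared because each ratio rests on 1 array. No setting in liver brought any of the 5 genes to 2-fold, and the signs of Kcne1, Kcne4 and Kcnq1, all close to 0, turned under 1 setting each. On the stomach array Kcne2 and Kcne3 were past 2-fold under every setting run.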

How the data were processed

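From each sample 500 ng of total RNA was amplified and dye-labelled, per the labels' protocols. Feature Extraction 8.5.1.1 read the scans, per the submitters' processing notes. The authors' deposited scanner files hold the raw intensity of each spot and its background, and intensity after correction for background and dye. They also give the log10 of Cy5 over Cy3, its error, and a p-value for the spot, per the file headers; the p-values were not used. The authors' deposited table gives log10 ratios and signals of selected spots, with no selection rule stated. Its signals equalled the scanner files' processed signals within 1% at all 951 liver and 3042 stomach spots. Lung spots were joined by spot number. In the lung list of Cy3-high spots, the listed signals gave the listed ratio at 2288 of 4064 spots, the members' spots among them. At the other spots of that list the listed signals did not give the listed ratio, and the ratios were taken as listed. Which negative lung ratios of list genes, markers, nearest genes and neighbours rest on such spots is not marked here.

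In limma 3.58.1 (R 4.3.3), the background was corrected by normexp with an offset of 50, which pulls dim ratios towards 0. Loess within each array (weight 0 for controls) then gave the ratios, a step tested on simulated data, and Aquantile the levels. Control and outlier spots were dropped. Probes dim in both channels, or saturated in both, were dropped too. Spots were averaged per probe and probes per gene. Alternatives were run to the background correction, the normalisation, the filter on dim or saturated probes, the outlier flags and the averaging of probes. Python 3.11.15, numpy 2.4.6 and pandas 2.3.3 did the rest. Names came from a RefSeq table (GRCm38.p6, for names only): 22951 probes by accession, 124 by another listed accession, 6584 by symbol, 3052 by synonym, and 8463 kept the file's name. Named genes were the members, list genes past 2-fold (up to 6 a list and array), partner channels (some are not reported here), marker genes, the 5 nearest genes and the 3 neighbours on each side; other list genes that are named, and all lung ratios of list genes, were picked after their values were seen. Members and lists were chosen with earlier results of these data known. No test was possible with 1 array per organ. The number of per-sample columns left unused for want of a sample was 0.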

Additional observations from a re-analysis of the deposited data

Results flagged for a closer look

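Kcnq1 was brighter in Cy3 on the stomach array (log2 ratio -1.297, 1 array) and brighter in Cy5 in the lung pair of the authors' deposited table (2.183), so its sign differed between the organs. The difference was not tested: each organ had 1 array, the lung tumour was set beside a wild-type mouse, and the stomach ratio fell under 2-fold when the array was only centred on its median.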

How the results depend on the processing

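Of 148 comparisons of a result with an alternative, 124 kept the value within its error or the count within 1.5 times, 24 moved and 0 turned the sign of a value past 2-fold. Ratios close to 0 did change sign in liver: Kcne1 was 0.05 with the brightest probe, and with median centring Kcne4 was -0.16 and Kcnq1 0.17. With the scanner software's own ratio, Kcne1 was -0.70 in liver and -0.89 in stomach, Kcne2 -4.29 and Kcne3 3.54 in stomach, and partner channels past 2-fold numbered 1 in liver and 2 in stomach. With a normexp offset of 16, Kcne3 was 0.15 in liver, Kcne1 -0.63 and Kcne3 3.12 in stomach, and 1 partner channel was past 2-fold in stomach. With median centring in place of loess, in stomach Kcne2 was -3.30, Kcne3 3.17, Kcnq1 -0.61 and Kcnq1ot1 0.22; members past 2-fold in stomach numbered 2. Naming probes by the array design alone, an alternative chosen after seeing the data, gave Kcnq1 -0.69 in stomach and also 2 members past 2-fold, against 3 in the report. With background subtraction alone, the log2 lead of the brightest channel over the next moved from 3.88 to 3.19 for Kcne2, from 2.55 to 3.43 and from 2.88 to 3.68 for the Kcne3 probes, from 1.30 to 0.24 for Kcnq1, from 0.16 to 0.055 for Kcne1 probe A_51_P211671 and from 0.35 to 0.20 for Kcnq1ot1 probe A_52_P619388. The lead was lost for the Kcne5 probe (0.047 to -2.11), for Kcne1 probe A_52_P71704 (0.12 to -0.039) and for Kcnq1ot1 probe A_52_P618494 (0.082 to -0.064). Over all genes, those 2-fold brighter in Cy5 and in Cy3 numbered 39 and 18 in liver and 222 and 359 in stomach; offset 16 gave 72 and 57, and 359 and 508, the scanner ratio 541 and 420, and 1095 and 1050, and median centring 111 and 7, and 1018 and 235. The share brighter in Cy5 went from 68.4% to 94.1% in liver and from 38.2% to 81.2% in stomach with median centring, and to 56.3% and 51.0% with the scanner ratio. Kcne4, Kcne5 and 1 Kcne1 probe lay near the negative controls, where signal over background limits any ratio. No paired analysis was possible because each organ had 1 array.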
